A study of Homo sapiens with 3 samples.

Results

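Mitosis and G2/M genes were examined as a set of 46 named genes out of the 21610 genes that the array could name. A gene belonged by its symbol, taken from the RefSeq accession of the probe, and where several probes carried 1 symbol the brightest stood for the gene. The RNA came from HT29, an established epithelial line from a human colon adenocarcinoma, grown on tissue culture polystyrene (TCP, the flat control substrate, titled 2D), on a chitosan membrane (CS, a film of the deacetylated form of chitin), or on a chitosan membrane to which hyaluronan had been grafted (CSHA). Hyaluronan is a matrix polysaccharide. Each substrate was measured by 1 single-colour array of Cy3-labelled cRNA, and all 3 arrays lay on 1 slide. Nothing in the sources used here gives the number of cultures behind an array, and 1 cell line stands for the tissue. With 1 array per substrate there is no replicate error and no test, so the values below describe these 3 arrays.

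Cells pass from G2 into mitosis when CDK1 bound to cyclin B is switched on. PLK1 and the Aurora kinases then build the spindle, the spindle checkpoint holds CDC20 until every chromosome is attached, and CDC20 with the anaphase-promoting complex (APC/C) destroys cyclin B and securin. The transcripts of these genes peak together late in the cycle, driven in large part by the MuvB complex with B-Myb and FOXM1, and their summed level is widely used as a sign of proliferation in colon epithelium and its tumours.

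The arrays were alike in quality. Between 48.6% and 51.1% of 50599 probes were well above background on an array, no spot was saturated, and the 75th percentile of the signal lay between 337.2 and 422.5 scanner units. All 8 colon epithelial markers were above background on every array. Of 7 fibroblast markers, SPARC and VIM alone were above background, on TCP, at signals no higher than 29.5, and their summed signal over the list was highest on TCP (91.7), then CS (47.3), then CSHA (34.8). Of 4 immune markers with a probe, between 2 and 3 were above background on an array, with a summed signal of 293.8 to 339.9, and the 3 endothelial markers lay at signals of 33.0 to 56.7, close to the lowest signal above background (21.1 to 24.1). The part of these markers in the results was not tested.

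All 46 genes were well above background on all 3 arrays, as were 13486 of the 21610. Levels are given as the log2 of the background-corrected signal relative to the 75th percentile of the same array, and differences are differences of these log2 levels, so that -1 stands for a 2-fold lower signal. Levels of different genes come from different probes and were not set against each other. The 1 error that the arrays offer is technical: 860 probes were printed 10 times on each array, with a median SD among spots of 0.06 on CS, 0.07 on TCP and 0.08 on CSHA. From this the error of a difference due to spots lay between 0.01 and 0.12 for the 46 genes. Most of the 46 had a probe printed once and so no spread of their own. They took the median SD of the repeated probes of like brightness. The spot error holds neither culture nor labelling error. In bulk RNA, fewer cells in G2 and mitosis cannot be told apart from less transcript per cell.

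On CS the set stayed near its level on TCP. Of the 46 genes, 28 were lower by any amount (60.9%, where 43.2% of all 14462 genes compared were lower) and the median difference was -0.03, beside 0.04 for all genes. FOXM1, the transcription factor of the late cell cycle, was the 1 gene at least 1.5-fold lower, a size that 5.03% of all genes reached, and no member reached it with the normexp background correction. No member was at least 1.5-fold higher (4.11% of all genes), at least 2-fold lower (1.92%) or at least 2-fold higher (1.36%). The difference was within 0.1 of TCP for 24 of the 46 (52.2%), beside 31.2% of the 13486 genes above background on all arrays.

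On CSHA the values spread out on the lower side. Against TCP, 31 of the 46 were lower (67.4%, beside 38.3% of 14624 genes) and the median was -0.08, beside 0.13 for all genes. At least 1.5-fold lower were 9 genes, 19.6% of the set, where 11.2% of all genes were: FOXM1, PLK1, CDC20, AURKB, KIF2C, AURKA, KIF4A, CDC25B and HJURP. FOXM1, PLK1 and CDC20 were at least 2-fold lower, a size found in 3.98% of all genes. CDC20 missed it with the normexp correction (-0.98) and in the deposited log2 values (-0.97), and PLK1 missed it with the mean over its probes (-0.76). No member was at least 1.5-fold higher, though 11.5% of all genes were, and none was at least 2-fold higher (3.02% of all genes). The lower side is read relative to the 75th percentile. When the arrays were set level on 9 spike-in probes instead, the median of all genes on CSHA moved to 0.40 and that of the members to 0.19, and 16 of the 46 were lower beside 21.7% of all genes. At least 1.5-fold lower were then 4 members (8.7%), FOXM1, PLK1, CDC20 and AURKB, and 0 were at least 2-fold lower. The 11.2% and 3.98% of all genes were taken with the 75th percentile, so they cannot be set beside these counts. The spike-in scaling moves all genes of an array alike, so the distance of the members from the median of all genes stays as it was. The members lay 0.20 below it, with 37 of the 46 under it.

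The 9 genes were lower on CS too, and lower on CSHA than on CS. Their median difference from TCP was -0.24 on CS and -0.81 on CSHA, a description of genes picked by the CSHA values. The other 37 had medians of -0.01 and -0.03. All 9 were below TCP on both membranes under each of the alternative ways of processing the arrays, the spike-in scaling included. On CSHA they were picked for being at least 1.5-fold lower, a distance larger than the shift of the spike-in scaling. Their sign on CSHA is therefore no measure of stability. The size of 1.5-fold cuts through a run of values: HJURP at -0.59 was the last inside it, and TPX2 at -0.54 and KIF20A at -0.52 were the first outside.

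**Figure D1:**
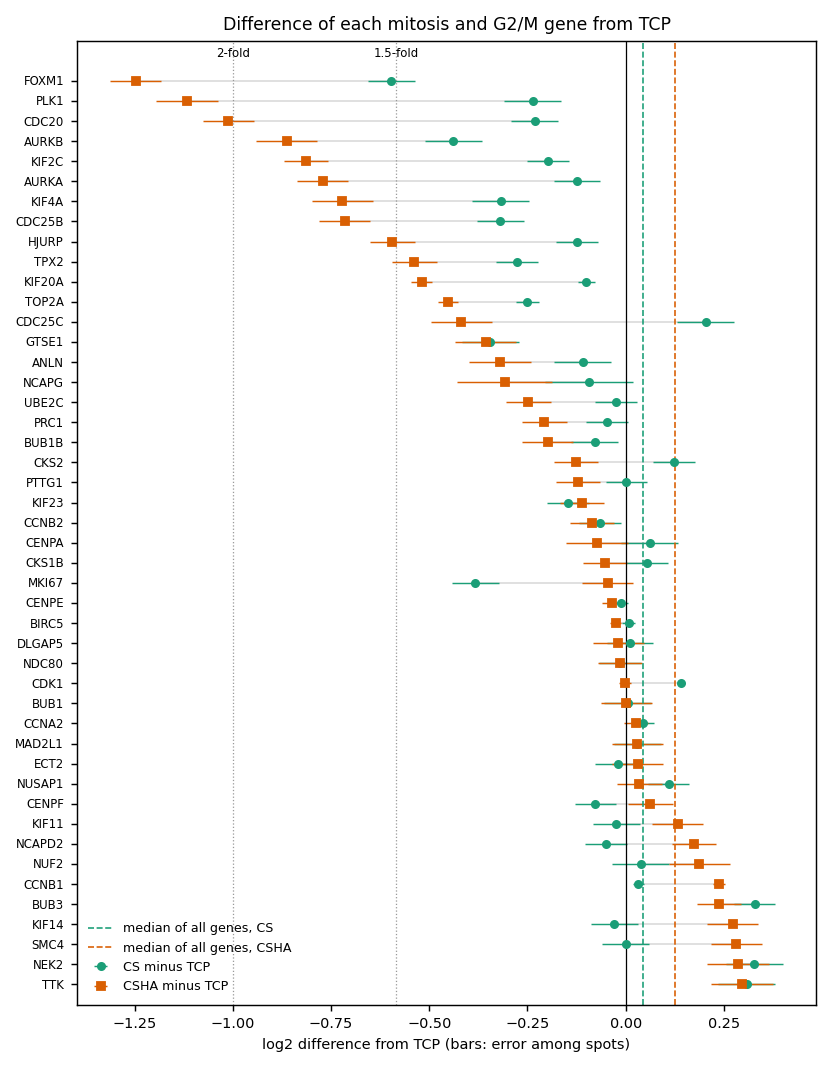
Log2 difference from TCP of each of the 46 genes on CS (circles) and CSHA (squares), sorted by the value on CSHA, with bars for the error among spots and dashed lines for the median of all genes. FOXM1, PLK1 and CDC20 lie beyond the 2-fold line on CSHA and TTK is highest at 0.30, while on CS only FOXM1 passes 1.5-fold; set level on spike-in probes, the median of the 46 on CSHA was 0.19 in place of -0.08.

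Between the membranes, which differ in the graft, 36 of the 46 were lower on CSHA than on CS (78.3%, beside 41.5% of 14597 genes), with a median of -0.10 beside 0.07 for all genes. With the spike-in probes 11 of the 46 were lower beside 18.1% of all genes, and the medians were 0.17 and 0.34. At least 1.5-fold lower on CSHA than on CS were 6 genes, PLK1, CDC20, FOXM1, AURKA, CDC25C and KIF2C, where 7.33% of all genes were. None was at least 2-fold lower (2.15% of all genes), at least 1.5-fold higher (7.68%) or at least 2-fold higher (2.27%). With the spike-in probes PLK1 alone stayed at least 1.5-fold lower (-0.61), and MKI67 was at least 1.5-fold higher (0.60). Both are values of the brightest probe. Without the spike-in scaling, CSHA minus CS was 0.06 for the second probe of PLK1. For MKI67 it was 0.34, 0.06 and -0.38 from the brightest to the dimmest probe. The 7.33% and 7.68% of all genes were taken without the spike-in scaling, so they cannot be set beside these calls of PLK1 and MKI67. The comparisons of CS and of CSHA with TCP share the TCP array, so that an error of that array would move both the same way. CSHA against CS does not use the TCP array, but it shares the CSHA array with CSHA against TCP. An error of the CSHA array would move those 2 comparisons the same way.

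Over the 3 substrates, 21 of the 46 genes (45.7%) ran in the order TCP, CS, CSHA from highest to lowest, beside 18.9% of the 13486 genes above background on all arrays. CCNB1, NUF2 and SMC4 ran in the opposite order (6.52%, beside 34.1%), though SMC4 differed by under 0.01 between TCP and CS. A further 8 genes (CDK1, CDC25C, CKS1B, CKS2, BIRC5, PTTG1, DLGAP5 and CENPA) were higher than TCP on CS and lower on CSHA (17.4%, beside 10.8%). Another 5 (KIF11, KIF14, CENPF, NCAPD2 and ECT2) went the other way round (10.9%, beside 15.7%). These orders depend on the scaling: with the spike-in probes 10 members ran from TCP down to CSHA (21.7%, beside 10% of genes) and 17 in the opposite order (37%, beside 50.5%). Many of the steps were small, and 12 genes were within 0.1 of TCP on both membranes with the 75th percentile (26.1%, beside 7.82%).

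Promoter sequence is shown for 5 genes to set those that were lower on CSHA beside those that were not. Known G2/M promoters carry the cell cycle genes homology region (CHR, TTTGAA), which binds MuvB, and CCAAT boxes, which bind NF-Y. Each stretch runs from 150 bases before the RefSeq start of the gene through its first 20 bases, on the plus strand of GRCh38.p14, with TTTGAA and CCAAT in capitals (the latter as ATTGG where it lies on the opposite strand). PLK1 (chr16:23678739-23678908), CDC20 (chr1:43358831-43359000) and KIF4A (chrX:70289954-70290123) were at least 1.5-fold lower on CSHA, and CCNB2 (chr15:59104996-59105165) and CCNB1 (chr5:69167000-69167169) were not.
PLK1: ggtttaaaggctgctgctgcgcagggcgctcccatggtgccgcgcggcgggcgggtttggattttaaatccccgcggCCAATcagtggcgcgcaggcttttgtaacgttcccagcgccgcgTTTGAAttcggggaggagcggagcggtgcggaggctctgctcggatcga
CDC20: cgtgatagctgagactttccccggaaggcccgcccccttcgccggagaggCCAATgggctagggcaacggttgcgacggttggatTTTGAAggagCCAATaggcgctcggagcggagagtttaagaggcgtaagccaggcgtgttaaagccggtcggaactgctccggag
KIF4A: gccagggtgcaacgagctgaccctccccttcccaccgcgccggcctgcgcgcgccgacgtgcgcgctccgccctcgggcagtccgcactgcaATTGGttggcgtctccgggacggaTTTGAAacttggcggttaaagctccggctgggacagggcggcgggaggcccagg
CCNB2: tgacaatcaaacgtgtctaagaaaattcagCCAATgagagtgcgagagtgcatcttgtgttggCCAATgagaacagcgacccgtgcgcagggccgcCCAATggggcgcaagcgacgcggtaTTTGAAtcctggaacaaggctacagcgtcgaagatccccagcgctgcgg
CCNB1: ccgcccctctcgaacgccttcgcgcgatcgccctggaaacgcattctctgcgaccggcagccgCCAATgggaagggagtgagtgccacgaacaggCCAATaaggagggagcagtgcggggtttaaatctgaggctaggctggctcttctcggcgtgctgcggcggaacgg
Counted in bases from the gene start, PLK1 had a CHR at -29 and a CCAAT box at -73. CCNB2 had its CHR at -29 as well, with CCAAT boxes at -54, -87 and -120. CDC20 had a CHR at -65 between CCAAT boxes at -55 and -100, KIF4A a CHR at -34 and a reversed box at -58, and CCNB1 boxes at -55 and -87 with no TTTGAA in the stretch. Both kinds of letters were thus present in the lower genes printed and in CCNB2, which was not lower by that size. Other genes at least 1.5-fold lower on CSHA differed from the printed ones. KIF2C had neither kind of letters in the same stretch, and AURKB had no TTTGAA in the stretch of either of its listed starts.

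RefSeq promoters (250 bases before the start and 50 from it) were given for 39 of the 46 genes, and not for AURKA, BIRC5, BUB3, TTK, UBE2C, TPX2 and FOXM1. On either strand, TTTGAA was found in 29 of 39 (74.4%), beside 18.2% of 27305 genes with a promoter, and CCAAT in 31 of 39 (79.5%), beside 39.7%. Both stood in 23 (59.0%), beside 7.26%. Of the genes at least 1.5-fold lower on CSHA, 4 of 7 had TTTGAA and 6 of 7 had CCAAT, and of the other members 25 of 32 had each. The related TTCGAA was found in 3 of 39 (7.69%), beside 1.82% of genes. The E2F-type letters TTTCGCGC and TTTGGCGC, known from S phase promoters, stood in 1 of 39 each (2.56%), beside 5 and 6 of 28 S phase genes and 0.63% and 0.79% of all genes. TTTGAA was found in 2 of those 28 S phase genes. A match is a match of letters and not a bound site.

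**Figure D2:**
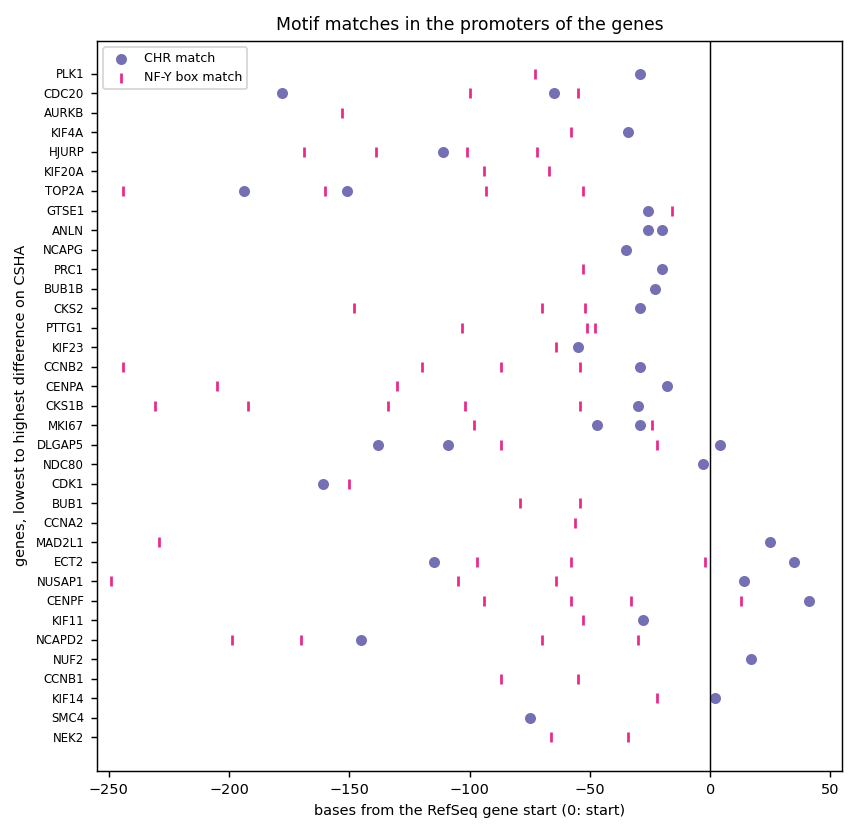
Position of each match to TTTGAA (CHR, circles) and CCAAT (NF-Y box, ticks) on either strand in the first listed RefSeq promoter, in bases from the gene start. Genes are sorted by their difference on CSHA. Genes without a match in that promoter are not drawn, among them KIF2C and CDC25B, both at least 1.5-fold lower on CSHA. Matches to TTTGAA had a median position of -29 and those to CCAAT of -76, and both occur from the top to the bottom of the genes drawn.

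**Figure D3:**
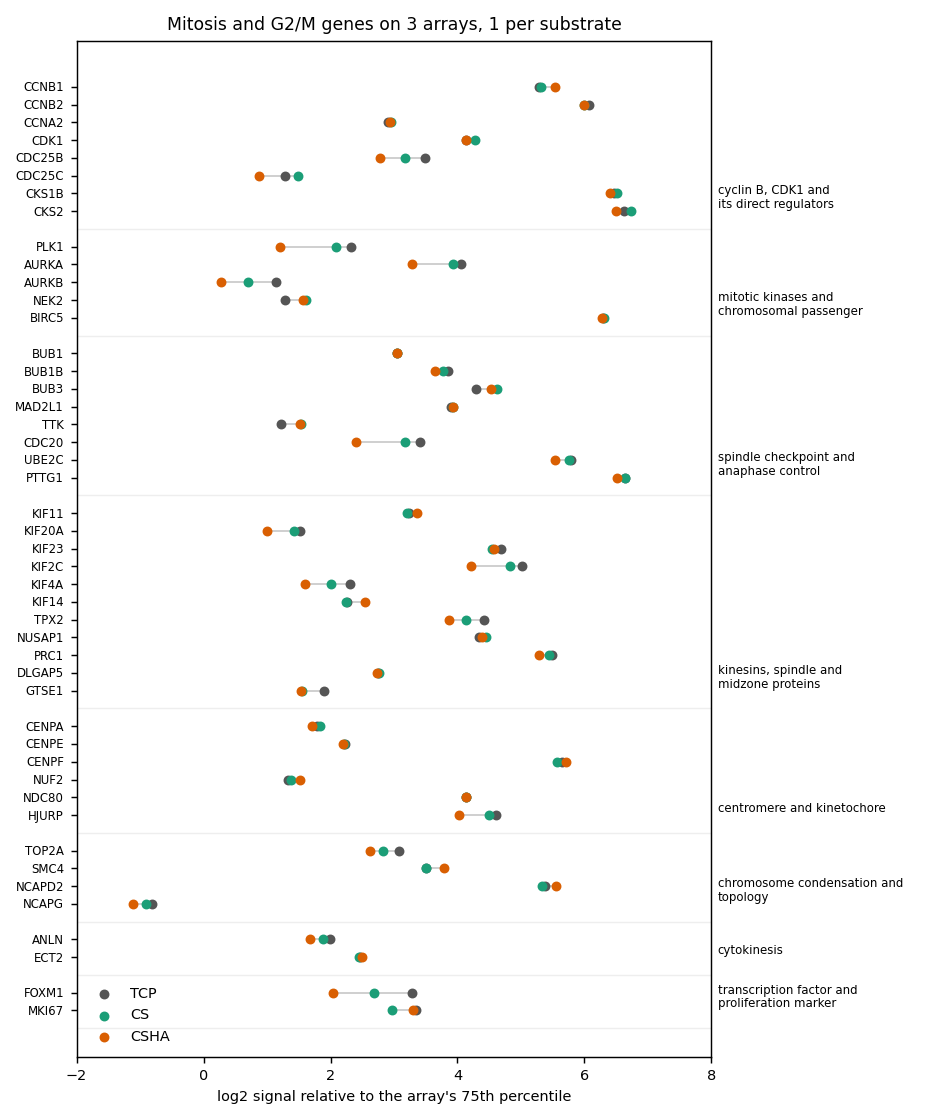
Log2 level of the 46 genes on the TCP, CS and CSHA arrays relative to the 75th percentile of each array, 1 point per array, grouped by role. PLK1, CDC20 and FOXM1 are spread over about 1 log2 unit with CSHA lowest, while CCNB2, BIRC5 and BUB1 hold 3 points in 1 place.

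Among cyclin B, CDK1 and their direct regulators, cyclins and CDK1 differed less than the activating phosphatases. CCNB1, the main mitotic cyclin, stood at 5.29 on TCP, 5.32 on CS and 5.53 on CSHA. CDK1, its catalytic partner, stood at 4.13, 4.27 and 4.13. CCNB1 was thus highest on CSHA and CDK1 on CS, and both are measured by probes printed 10 times, with spot errors of the differences no larger than 0.02. CCNB2, the second B-type cyclin, was at 6.07, 6.0 and 5.99, and CCNA2, the cyclin of S phase and G2, at 2.91, 2.96 and 2.94. These steps lie within or near the error among spots. CDC25B, a phosphatase that starts CDK1 activation, was at 3.49, 3.17 and 2.78, or 80.1% of TCP on CS and 60.9% on CSHA. CDC25C, which amplifies it, was at 1.29, 1.49 and 0.87, highest on CS and lowest on CSHA, with a difference of -0.62 between the membranes. The CDK-binding subunits CKS1B and CKS2 differed from TCP by 0.06 and 0.12 on CS and by -0.05 and -0.13 on CSHA. Of these 8 genes 6 were higher on CS (median 0.05), where 8210 of all 14462 genes were higher (median 0.04). On CSHA 6 were lower (median -0.07), beside 38.3% of all genes. Of these 6, CDC25B and CDC25C were lower with the spike-in probes too, beside 21.7% of all genes.

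The mitotic kinases held 3 of the 9 lowest genes on CSHA. PLK1, the kinase of mitotic entry and spindle assembly, stood at 2.32 on TCP, 2.08 on CS and 1.20 on CSHA. This is 84.8% of TCP on CS and 46.1% on CSHA. CSHA was low, and TCP and CS were close. A dimmer second probe of PLK1 stood at -0.26, -0.72 and -0.66, which is lower on both membranes with a step of 0.06 between them. AURKA, the centrosome and spindle kinase, was at 4.06, 3.93 and 3.29, so that most of its difference of -0.77 also lay between CS and CSHA. AURKB, the enzyme of the chromosomal passenger complex, was at 1.14, 0.70 and 0.27, in 2 steps of like size. BIRC5 (survivin), its partner in that complex, was at 6.30, 6.31 and 6.28 and was the kinase group's flattest gene. NEK2, which separates the centrosomes, was at 1.29, 1.61 and 1.57, higher on both membranes by its brightest probe. Its second probe differed from TCP by 0.12 on CS and -0.37 on CSHA. Over the 5 genes the median was -0.12 on CS and -0.77 on CSHA. All 5 were lower on CSHA than on CS, beside 41.5% of all genes, though with the spike-in probes NEK2 and BIRC5 were higher on CSHA.

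In the spindle checkpoint and anaphase group, CDC20 stood apart. CDC20, the APC/C activator that the checkpoint restrains, was at 3.41 on TCP, 3.18 on CS and 2.40 on CSHA, which is 85.1% and 49.6% of TCP. The checkpoint kinase BUB1 was at 3.04 on each array. The checkpoint kinase TTK was at 1.22, 1.53 and 1.52, and BUB3, the adaptor of BUB1, at 4.29, 4.62 and 4.53. TTK was thus higher on both membranes, by 0.31 on CS. BUB3 was higher by its brightest probe (0.33 on CS), while its second probe was lower on both membranes (-0.13 and -0.60). MAD2L1, the inhibitor of CDC20, differed by 0.03 on either membrane, and BUB1B, another checkpoint protein, by -0.08 and -0.20. UBE2C, the ubiquitin-conjugating enzyme of the APC/C, differed by -0.02 and -0.25. PTTG1 (securin), which the APC/C destroys at anaphase, differed by 0.002 on CS, the smallest value of the group there, and by -0.12 on CSHA. The 8 genes split 4 and 4 on CSHA with a median of -0.06, beside 38.3% of all genes lower. All 8 were lower on CSHA than on CS (beside 41.5% of all genes), the smallest of these steps under 0.01. With the spike-in probes CDC20 alone was, beside 18.1% of all genes.

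Of 11 kinesins, spindle and midzone proteins, 9 were lower on CS and 8 on CSHA, beside 43.2% and 38.3% of all genes. Medians were -0.10 and -0.21. With the spike-in probes 5 were lower on CSHA, beside 21.7% of all genes. KIF2C, a kinesin that depolymerises microtubules at centromeres, stood at 5.02, 4.82 and 4.21, and KIF4A, a chromokinesin of the midzone, at 2.31, 2.00 and 1.59. Both ran down from TCP over CS to CSHA, at 56.9% and 60.7% of TCP on CSHA. A second probe of KIF4A gave -0.49 on CS and -1.03 on CSHA. TPX2, which activates AURKA on the spindle, stood at 4.41, 4.14 and 3.87, and KIF20A, a kinesin of cytokinesis printed 10 times, at 1.52, 1.42 and 1.0. GTSE1, a microtubule-binding protein of G2, was at 1.90, 1.55 and 1.54, the lowest of the group on CS (-0.34) with no further step to CSHA. On the other side were KIF14, a kinesin of the midbody (2.26, 2.24 and 2.54), and KIF11, the motor that separates the spindle poles (3.23, 3.21 and 3.37), both highest on CSHA. NUSAP1, a spindle-bundling protein, was the highest of the group on CS at 0.11. KIF23, PRC1 and DLGAP5, all of the spindle or midzone, lay between -0.15 and 0.01 on CS and between -0.21 and -0.02 on CSHA.

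Centromere and kinetochore genes differed little, except for HJURP. HJURP, the chaperone that loads the centromeric histone CENPA, stood at 4.61, 4.49 and 4.02, or 66.3% of TCP on CSHA. CENPA itself stood at 1.78, 1.84 and 1.70. NDC80 and NUF2, subunits of the complex that grips microtubules, were at 4.14, 4.13 and 4.13 and at 1.33, 1.37 and 1.52. NDC80 was level to within 0.02 and NUF2 was highest on CSHA. The kinetochore motor CENPE, printed 10 times, differed by -0.01 and -0.03, and CENPF by -0.08 and 0.06. A second probe of CENPF gave -0.14 on CS and -0.25 on CSHA. Medians of the 6 genes were -0.01 on CS and -0.03 on CSHA.

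In chromosome condensation, TOP2A and NCAPG were lower on both membranes, and SMC4 and NCAPD2 were higher on CSHA by their brightest probes alone. TOP2A, the topoisomerase that untangles sister chromatids, was printed 10 times and stood at 3.08, 2.83 and 2.62, a difference of -0.25 on CS and -0.45 on CSHA with a spot error of 0.03. SMC4, the ATPase of condensin, was at 3.50, 3.50 and 3.78, and NCAPD2 at 5.38, 5.33 and 5.56. Their second probes differed from TCP on CSHA by -0.05 and -0.41. NCAPG, another condensin subunit, was at -0.82, -0.91 and -1.12. Its spot error was the largest of the 46 (0.12 on CSHA), an error taken from other probes of like brightness. Of the cytokinesis genes, ANLN (anillin, a scaffold of the contractile ring) was at 1.99, 1.88 and 1.67, and ECT2, the RhoA activator of the furrow, at 2.47, 2.45 and 2.50.

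FOXM1 had the largest difference of the set on either membrane. It stood at 3.29 on TCP, 2.69 on CS and 2.04 on CSHA, which is 66.1% and 42.1% of TCP. Its 3 levels were evenly spaced, and each step was larger than the spot error of 0.06. FOXM1 had 1 spot per array, so that error was taken from other probes of like brightness. It holds no culture error. Over the alternatives the difference of FOXM1 on CSHA ran from -1.31 to -0.97. MKI67, which encodes the Ki-67 proliferation antigen, stood at 3.35, 2.97 and 3.30, low on CS and back near TCP on CSHA. The 3 probes of MKI67 did not give 1 pattern: the second differed by -0.03 and 0.04, and the dimmest by -0.44 and -0.82.

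A second probe was present for 12 members, and it read lower more often than the first. Over all genes with a second probe, that probe was lower for 47% on CSHA and 49% on CS. The brightest probe was lower for 38.3% and 43.2% of all genes compared. Second probes thus stood lower more often beyond the members too, though these shares come from unlike sets of genes. On CSHA the second probe was below TCP for 10 of 12 and the brightest for 6 of the same 12, and the sign was shared for 6. On CS the numbers were 8, 6 and 9. BUB3 was 0.24 on CSHA by its brightest probe and -0.60 by its second, NEK2 0.29 and -0.37, and NCAPD2 0.17 and -0.41. SMC4 was 0.28 and -0.05, and CENPF 0.06 and -0.25. The higher values of these genes on CSHA therefore rest on 1 probe of a pair. For CCNB1 both probes were higher on both membranes. Of the 9 lowest genes, PLK1 and KIF4A have a second probe, lower on both membranes, and the other 7 rest on 1 probe. The second probe of PLK1, at -0.40 on CSHA, was not 1.5-fold lower, and it differed by 0.06 between the membranes. Which transcripts each probe reads was not tested.

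**Figure D4:**
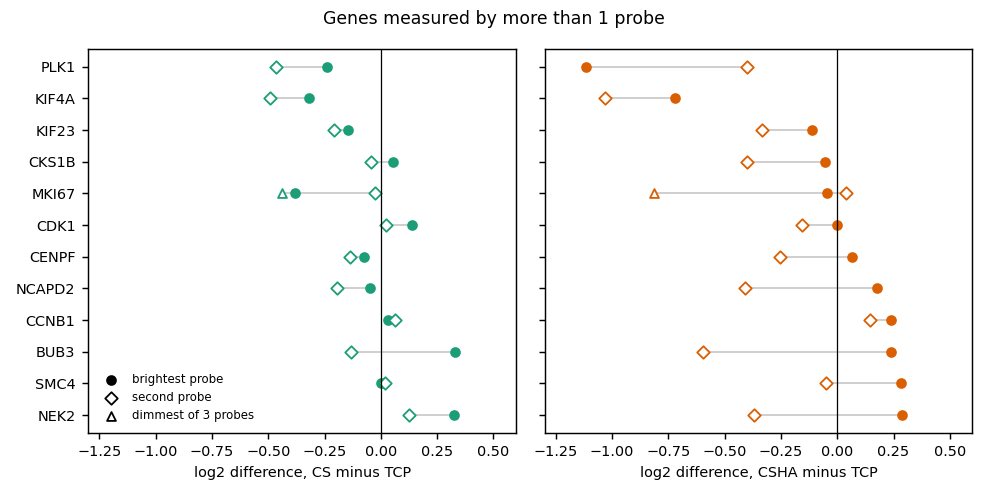
Log2 difference from TCP on CS (left) and CSHA (right) for the 12 genes with more than 1 probe, with filled circles for the brightest probe, open diamonds for the second and a triangle for the third of MKI67. PLK1, KIF4A and KIF23 lie left of 0 by both probes on either membrane. On CSHA BUB3, NEK2, NCAPD2, SMC4 and CENPF lie right of 0 by the brightest probe and left of it by the second.

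Other genes of the cycle were read from 6 lists. In 55 other G2/M genes the median was -0.02 on CS and 0.01 on CSHA. Lower were 29 and 25, beside 43.2% and 38.3% of all genes. On CSHA 8 were at least 1.5-fold lower and 0 at least 1.5-fold higher. These 8 of 55 stand beside 11.2% of all genes. PIMREG, a mitotic protein, was lowest of that list on CS (-0.95) and stood at -1.59 on CSHA, and TUBB4B, a beta-tubulin, was lowest on CSHA (-1.69). HMMR, a spindle protein that also binds hyaluronan, was highest on CS, at 3.94 on TCP, 4.33 on CS and 4.11 on CSHA. SPC24, of the NDC80 complex, was highest on CSHA (0.54). In 33 S phase genes the medians were -0.04 and 0.01. On CSHA 6 were at least 1.5-fold lower (11.2% of all genes) and 4 at least 2-fold lower (3.98% of all genes). Among the members these numbers were 9 and 3 of 46. In that list POLE, the catalytic subunit of DNA polymerase epsilon, was lowest on CS (-0.40) and MCM2, of the replicative helicase, was lowest on CSHA (-1.43). CDT1, the licensing factor, was highest on CSHA (0.24).

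In 12 MuvB and DREAM components, which repress or activate G2/M promoters, 5 were lower on CS and 4 on CSHA (beside 43.2% and 38.3% of all genes), with medians of 0.15 and 0.21. MYBL2 (B-Myb), which with FOXM1 activates these promoters and is named here for that role after its values were seen, stood at 2.75 on TCP, 2.57 on CS and 1.87 on CSHA. It was lower on both membranes (-0.18 and -0.89), as was FOXM1. E2F4, the repressor E2F of DREAM, was lowest on both membranes (-0.21 and -1.28), the pocket protein RBL2 was highest on CS (0.37) and LIN52, a MuvB subunit, was highest on CSHA (0.77). In 15 APC/C subunits and activators, medians were 0.02 and 0.08. ANAPC7 was lowest on CS (-0.21), ANAPC15 lowest on CSHA (-1.21), and ANAPC5 highest on both (0.34 and 0.69). In 9 cohesin genes, medians were 0.07 and 0.23, with SMC1A lowest on both (-0.32 and -1.10) and PDS5B and STAG2 highest on CS (0.45) and CSHA (0.49). Of 14 G1 cyclins, kinases and CDK inhibitors, 13 could be compared, with medians of 0.08 and 0.13. CDK6, a kinase of the G1 to S step, was the lowest gene on CS, with levels of 4.55 on TCP, 3.36 on CS and 4.81 on CSHA. CDKN1B, an inhibitor, was highest on CS (0.34). On CSHA the inhibitor CDKN2B was lowest (-1.12). CDKN1A, the p21 inhibitor, had only a bound on the TCP array, where it was too dim, and its CSHA level was higher by at least 0.62 on the log2 scale.

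**Figure D5:**
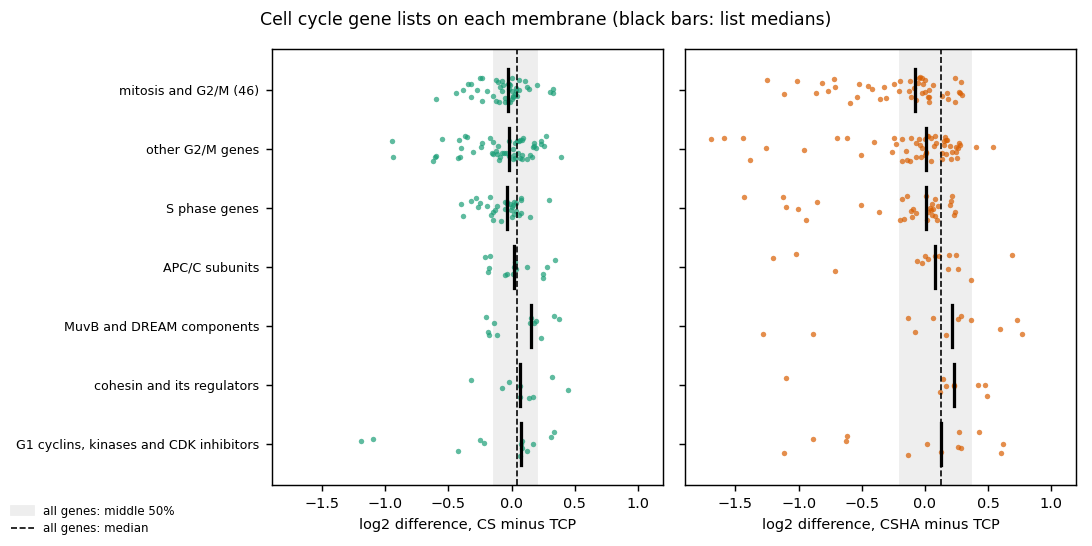
Log2 difference from TCP on CS (left) and CSHA (right) of each gene in the set and in 6 further cell cycle lists, 1 point per gene (a bound where 1 array was not above background), with black bars for list medians, a dashed line for the median of all genes and a grey band for their middle 50%. The set has medians of -0.03 and -0.08 and a tail to -1.25 on CSHA, and the other G2/M and S phase lists have tails to -1.69 and -1.43; set level on spike-in probes, the median of the set on CSHA was 0.19.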

How the data were processed

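HT29 RNA from TCP, CS and CSHA was hybridised to 1 single-colour array each. The authors deposited scanner intensity values of every spot, background-corrected by Feature Extraction 10.7.3.1 per the file headers, and a table of log2 values. Compared with the scanner values, the deposited log2 table holds shifted spot signals without background subtraction, centred per spot, and it served as an alternative. The submitters' processing notes name limma.

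Control and outlier spots were left out, spots of a probe were averaged, a floor of 1, below every signal, was set, and each array's 75th percentile of log2 processed signal was subtracted. Of 50599 probes, 30004 matched 1 symbol by accession in the RefSeq table, giving 21610 genes, and the brightest probe stood for a gene. A difference is a bound if 1 of its 2 arrays was not well above background. Genes were compared when at least 1 of both arrays was above background. The members and lists were chosen with earlier results of these data known. All 46 members are accounted for. Described singly are the extremes of each role group, members at least 1.5-fold different and 7 core genes, and of the other lists the highest and lowest gene per membrane, except 1 that is not reported here.

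No test was possible. The 10 alternatives changed the shift, normalization, background correction (normexp with offset 50 on the median signal), source table, filter or probe. Python 3.11.15, numpy 2.4.6, pandas 2.3.3, matplotlib 3.10.9, R 4.3.3 and limma 3.58.1 were used, and the code was tested on simulated data. The number of arrays limits the precision. Promoters came from RefSeq on GRCh38.p14, matched by symbol, since the array design uses an older build.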

Additional observations from a re-analysis of the deposited data

How the results depend on the processing

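No paired analysis was possible because each substrate has 1 array. For CS the median of the members stayed below 0 under every alternative run. There the second brightest probe gave 8 lower of 12 (beside 49% of genes) and a median of -0.088. With the spike-in probes 0 members were at least 2-fold lower on CSHA, 16 were lower and the median turned to 0.19, and between the membranes 11 were lower and the median turned to 0.17. The mean over a gene's probes gave a CSHA median of -0.15. The second brightest probe gave 1 at least 2-fold lower on CSHA, 10 lower (beside 47% of genes) and a median of -0.35. Between the membranes it gave 9 lower (beside 49.1% of genes), with PLK1 at 0.064. With 1.5-fold as the size in place of 2-fold, 1 gene was lower on CS, 9 on CSHA and 6 between the membranes. The cause was not tested. With no filter on dim probes the median of all genes on CS was -0.05, so that the members lay 0.03 above it. On CSHA the median of the members minus that of all genes was then -0.088, in place of -0.204. There 32 members lay under the median of all genes, in place of 37. Of 1278 values of single members under the 10 alternatives, 995 moved by less than the spot error, 122 changed sign and 1 called value reversed. Many of the 995 could not move. The changes of filter leave every member as it was, since each was above background on every array. The mean over probes leaves genes with 1 probe as they were. The 995 are therefore no measure of stability. Dim second probes and the single array per substrate limit what can be read.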
